A study of Mus musculus with 32 samples.

Results

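The comparison described here is the step of the time course in which the *Gata6* transgene was withdrawn. Samples collected 16 h after the addition of Dox were compared with samples collected at 8 h, 4 replicates at each time, which is 8 of the 32 samples of the series. The samples were chosen by their labelled time points alone, and all 15227 genes that passed a filter on low counts were tested. Cells of both groups were mouse embryonic stem (mES) cells of the KH2 line, labelled as C57BL/6, with the transgene TRE:GATA6-DSREd2. In this transgene a TET-responsive element drives FLAG-tagged GATA6 in one direction and the fluorescent protein DsRed2 in the other, and Dox switches the element on. Cells were kept in medium with inhibitors of MEK and GSK3 and LIF, and were moved to serum medium with LIF when Dox was added at 1 µg/mL. The 8 h samples had been in Dox for 8 h, whereas the 16 h samples had been in Dox for 12 h and then without it for the last 4 h. Both groups are descendants of 1 engineered line, and neither a group kept in Dox for 16 h nor a group without Dox in the same medium was analysed here. The removal of Dox and the 8 h of elapsed time therefore cannot be told apart.

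GATA6 is a zinc finger transcription factor that binds the letters GATA in DNA. In the inner cell mass of the blastocyst it marks the primitive endoderm (PrE), the lineage that gives rise to the yolk sac, while NANOG marks the epiblast (Epi), the source of the embryo proper. Forced expression of GATA6 in mES cells moves them towards a PrE identity, in which the endogenous *Gata6* and *Gata4* genes, SOX and FOXA factors and the secretory and endocytic machinery of the yolk sac are switched on. The step from 8 h to 16 h shows which of these changes went on across the removal of Dox, without a test of the removal itself.

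Reads on genes were between 8723008 and 10115754 per sample at 8 h and between 8853865 and 11586928 at 16 h. Levels are given as normalized counts, the reads of a gene divided by the size factor of its library, and changes were tested with limma on log2 of the normalized count + 1 with Benjamini-Hochberg adjustment over all genes. Replicates 1 and 2 formed a set apart from replicates 3 and 4 at both times. Chi-square per degree of freedom between libraries was 1.45 to 1.94 within a set and 6.45 to 11.8 between the sets, where 1 is counting error alone. The study's reporting notes say that replicates were run independently. What sets replicates 1 and 2 apart from replicates 3 and 4 is not given in the sources used here, and p-values measure the spread between these libraries. All 7 stem cell markers were detected in both groups, with a summed normalized count of 9813 to 10364 at 8 h and 9295 to 10070.1 at 16 h. The sum of 11 PrE markers was 8534 to 8873 at 8 h and 22016 to 27818 at 16 h. Of 12 trophoblast markers, 10 had more than 3 reads in some library at 8 h and 9 at 16 h, and their sum was 229 to 269 at 8 h and 162 to 179.5 at 16 h, with *Tpbpa* at 0 at 8 h and *Psg17* at 0 at 16 h. The sum of 12 fibroblast markers was 263 to 437 at 8 h and 187 to 268 at 16 h, with *Postn* and *Twist2* at 0 at 8 h and *Col3a1*, *Postn*, *Dcn* and *Prrx1* at 0 at 16 h. Sums for 11 mesoderm, 10 neural and 11 two-cell-like markers overlapped between the groups, with ranges at 16 h of 123 to 142, 474 to 614 and 5.70 to 96.7. Mitochondrial genes held 2.08 to 2.15% of the reads at 8 h and 2.02 to 2.24% at 16 h. The part of these other cell types in the results was not tested. In bulk RNA, fewer cells that express a gene and less RNA per cell cannot be told apart.

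Between 8 h and 16 h, a span that includes the removal of Dox, reads on the transgene fell, while those on the endogenous gene rose. The transgene row held 451, 362, 594 and 609.7 normalized counts in the 4 samples at 8 h and 68.7, 72.5, 76.5 and 44.9 in the 4 samples at 16 h. All 4 samples at 16 h were below all 4 at 8 h, and the mean fell 7.68-fold, from 504 ± 119 to 65.7 ± 14.2 (SD, n = 4). The log2 fold change was -2.92 (SE 0.31, limma adjusted p = 4.70e-08). Endogenous *Gata6* held 328, 329, 351 and 376 normalized counts at 8 h and 851, 811, 948 and 998 at 16 h. The groups did not overlap here either, and the mean rose 2.61-fold, from 346 ± 22.6 to 902 ± 85.7 (log2 fold change 1.38, SE 0.15, limma adjusted p = 1.17e-07). A two-sided exact permutation test gave p = 0.0286 for each of these 2 rows (0.0286 after Benjamini-Hochberg adjustment over both), the smallest p that 4 against 4 samples allow. The transgene carries the coding sequence alone, so reads there come from both transcripts and reads on the untranslated regions from the endogenous one. The study's methods took the normalized coding signal minus that of the 3′UTR, both in the last exon of *Gata6*, as the expression of the transgene. They do not state that the 2 rows of the table were made that way, and the height of each row depends on this step.

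**Figure D1:**
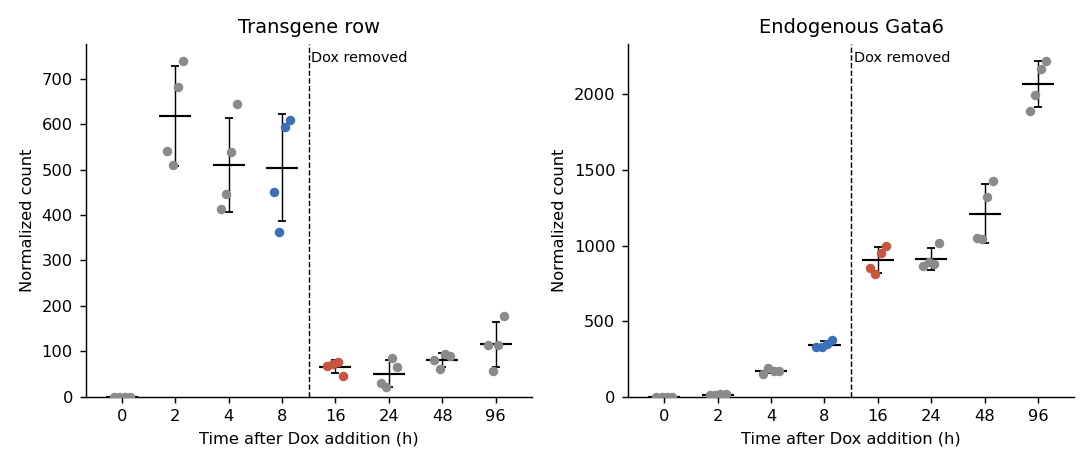
Normalized counts of the transgene row (left) and of endogenous *Gata6* (right) in every sample against the time after Dox addition in h, with evenly spaced time points, the mean as a horizontal line and the SD as an error bar (n = 4), the 8 h samples in blue and the 16 h samples in red. The transgene row went from 504 ± 119 at 8 h to 65.7 ± 14.2 at 16 h across the dashed line that marks Dox removal, while *Gata6* went from 346 ± 22.6 to 902 ± 85.7.

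On values scaled by the authors' size factors, rises and falls were similar in number over all genes. Such scaling sets the typical gene near no change, so a shift shared by most genes would not show. At the threshold of FDR < 0.1 and a change of at least 4-fold, 76 genes (0.499% of those tested) were higher and 82 (0.539%) were lower at 16 h, the transgene row among the latter. The 4 and 4 samples did not overlap in 74 of the 76 and 79 of the 82, against 24.9% of all genes tested. The called genes were picked on these same samples, so this separation follows largely from the selection and is no separate support. Without the fold cutoff, 1438 genes (9.44%) were higher and 1615 (10.6%) were lower, and the median log2 fold change of all genes was -0.01. Most genes called at 4-fold were of low abundance, with a median level in the higher group of 45.5 normalized counts for the 76 and 31.5 for the 82. At 8 h, 15 of the 76 had at most 3 reads in every library, and so did 29 of the 82 at 16 h, so that their folds are lower bounds. With a pseudocount of 8 in place of 1, 31 genes were higher and 20 lower at 4-fold, and with a mean normalized count of at least 50 required, 51 and 25. With the 2 libraries of each set averaged, which leaves 2 values a group, 319 genes were higher and 331 lower without the fold cutoff, and 72 of the 76 and 65 of the 82 were still at FDR < 0.1.

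**Figure D2:**
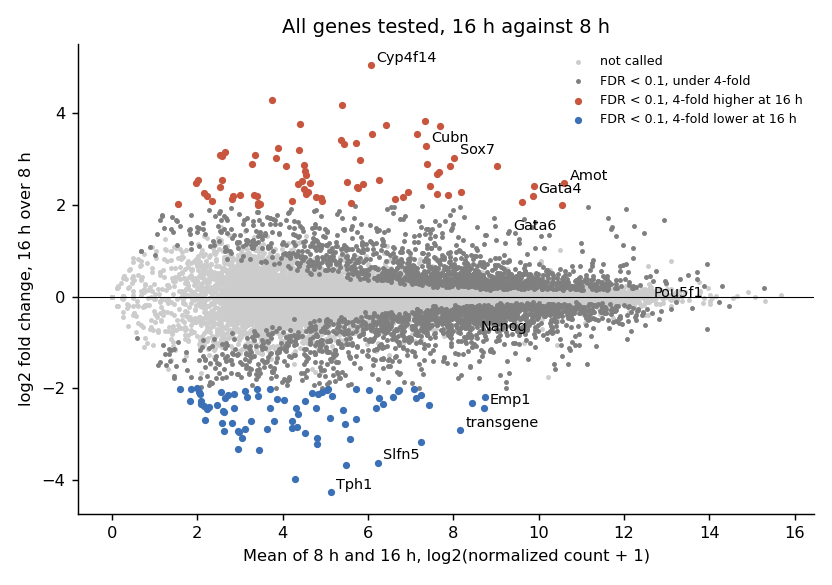
The log2 fold change at 16 h over 8 h of each of the 15227 genes tested (vertical axis) against its mean level in the 8 samples (horizontal axis, log2 of the mean normalized count + 1). The 76 genes called higher at 4-fold (red) and the 82 called lower (blue) lie mostly at low levels, with *Amot* (2.48) and *Gata4* (2.19) among the more abundant that rose and *Emp1* (-2.43) and the transgene row (-2.92) among those that fell, genes marked after their values were seen.

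Gene lists other than the study's own PrE and Epi genes were written with earlier results of these data known. Most transcription factors of the PrE rose. Of 14 such factors, all of which passed the filter, 10 were higher at 16 h (71.4%, against 9.44% of all genes) and 0 were lower. The median log2 fold change was 1.34 against -0.01 for all genes tested. Of the 10, 6 passed 4-fold. The largest rise was that of *Sox7*, an SRY-box factor of extraembryonic endoderm. It had 53.4, 67.0, 48.2 and 54.7 normalized counts at 8 h and 477, 498, 459 and 419 at 16 h. No sample of either group came near the other, and the log2 fold change was 3.04 (SE 0.35, limma adjusted p = 2.15e-07). *Gata4*, the GATA factor that acts beside GATA6 in the endoderm, had 292, 274, 388 and 392 at 8 h and 1407, 1443, 1628 and 1626 at 16 h. Its mean rose 4.53-fold (log2 fold change 2.19, SE 0.30, adjusted p = 4.51e-06), and no sample overlapped. The forkhead genes *Foxq1*, *Foxa1*, *Foxa2* and *Foxa3* rose as well, with log2 fold changes of 2.68, 2.15, 1.30 and 1.07 and adjusted p of 1.08e-06, 0.00124, 0.00468 and 3.09e-04. *Foxq1* replicates 3 and 4 lay above replicates 1 and 2 at each time (40.1, 30.4, 75.4 and 71.5 at 8 h, 262, 289, 390.0 and 399.6 at 16 h), yet the times did not overlap. *Hnf4a*, a nuclear receptor of visceral endoderm and liver, was barely measurable at 8 h, with at most 3 reads in any library, and had 7.83, 8.96, 14.6 and 10.4 normalized counts at 16 h, which was at least 4.33-fold higher (adjusted p = 1.83e-04). Its mean at 0 h was 6.60 ± 2.65 (SD, n = 4), so the rise of *Hnf4a* started from a dip. *Rhox5*, an X-linked homeobox gene of extraembryonic tissue, rose from 277 ± 13.1 to 515 ± 76.7 (SD, n = 4, adjusted p = 1.19e-05). The other four factors were not called. *Sox17* had 198, 235, 362 and 363 at 8 h and 340.1, 342, 599.7 and 586 at 16 h. Within replicates 1 and 2 and within replicates 3 and 4 it was higher at 16 h, but across the sets the times overlapped, and the log2 fold change of 0.68 (SE 0.29) had an adjusted p of 0.123, which became 0.0487 when the replicate number entered the fit as a block. *Cited1*, *Klf6* and *Eomes* had log2 fold changes of 0.30, -0.00 and -0.00, with adjusted p of 0.560, 0.996 and 0.997.

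Promoters (250 bases before to 50 after the start, RefSeq sequences, GRCm38.p6) were searched for the GATA-binding letters AGATAA where a sequence was at hand. Of these 14 factors, 8 were searched, and the letters were found in 2, *Hnf4a* and *Foxa2*. Of the 12 largest rises 9 were searched, and of the 12 largest falls all 12. Among these genes only *Nppb*, which fell, held the letters. Windows of 30 bases around the match are shown for *Hnf4a*, *Foxa2* and *Nppb*. Capitals mark the match, and the sequences read 5′ to 3′ on the strand of the gene. The *Hnf4a* window is chr2:163506793-163506822 (plus strand), with the match 52 bases before the start. The *Foxa2* window is chr2:148045630-148045659 (minus strand), with the match 183 bases before the start of 1 of its 3 promoters. The *Nppb* window is chr4:147985804-147985833 (plus strand), with the match 84 bases before the start.
Hnf4a: gaagaatcaataAGATAAccgggcggggtg
Foxa2: ctgttagccttgAGATAAtattaactttgt
Nppb: ctgataaatcagAGATAAccccacccctac
Over all genes, AGATAA on either strand was in 6.54% of the promoters of genes called higher at 4-fold (7 of 107 promoters of 58 genes) and in 6.54% of those of all genes tested (893 of 13653 promoters). Among promoters of genes called lower at 4-fold the share was 9.38% (9 of 96 promoters of 66 genes). Without the fold cutoff the shares were 6.97% for genes called higher and 6.23% for genes called lower. These are matches of letters in a short window and say nothing of binding.

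**Figure D3:**
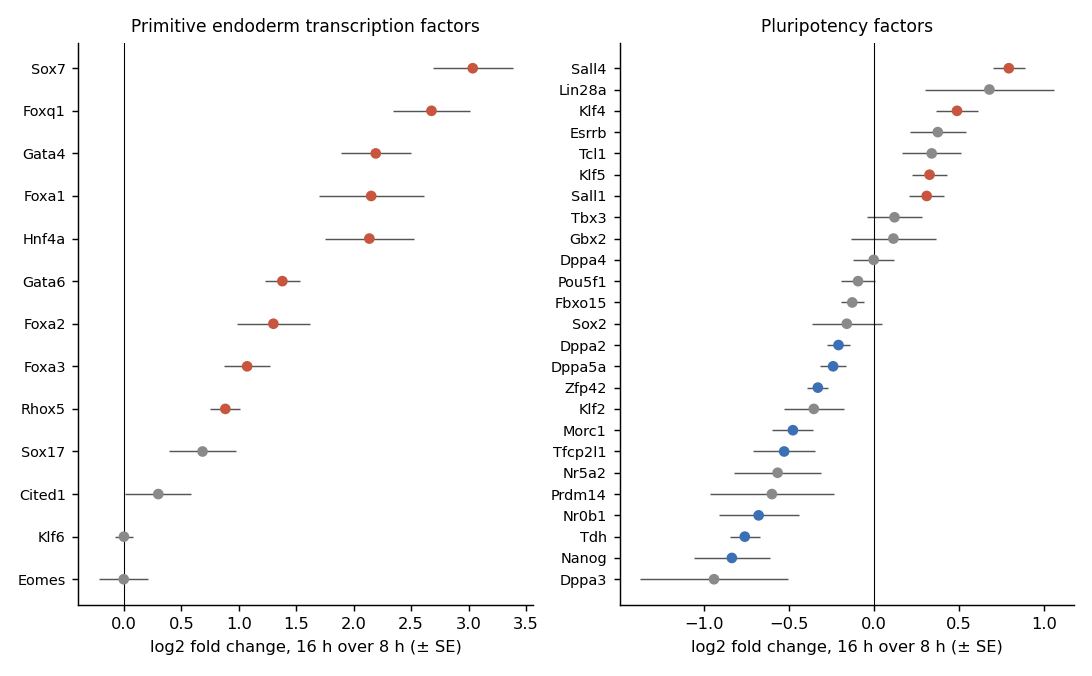
The log2 fold change at 16 h over 8 h with its SE (horizontal axis) for 13 PrE transcription factors (left) and 25 pluripotency factors (right), with genes higher at FDR < 0.1 in red, lower in blue and not called in grey. The PrE factors span -0.00 to 3.04 and 9 of them are red, while the pluripotency factors lie between -0.94 and 0.79, with 4 red and 8 blue.

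Of the 12 largest rises among abundant genes (a mean of at least 100 normalized counts at 16 h and no overlap between the groups), 11 are described. They were those of *Cyp4f14*, *Nostrin*, *Adora1*, *Car4*, *Prkcb*, *Gas6*, *Cubn*, *Sox7*, *Bend5*, *Dkk1* and *Fam198b*, with log2 fold changes from 5.05 to 2.84. *Cyp4f14*, a cytochrome P450 that hydroxylates fatty acids and leukotrienes, had 1.57, 6.25, 0.778 and 5.32 normalized counts at 8 h and 93.1, 96.1, 166 and 164 at 16 h. It was close to absent in all 4 samples at 8 h and rose 37.3-fold, with the higher values at 16 h in replicates 3 and 4 (adjusted p = 5.81e-10). *Nostrin*, an adaptor that controls the traffic of nitric oxide synthase, had 14.9, 14.3, 21.8 and 26.6 at 8 h and 188, 201, 409 and 405 at 16 h, a 15.5-fold rise (adjusted p = 1.37e-09). *Gas6*, the secreted ligand of the TAM receptor kinases, had 12.6, 26.8, 22.6 and 19.8 at 8 h and 164, 161, 369 and 345 at 16 h (log2 fold change 3.54, adjusted p = 1.84e-10). In each of these 3 genes replicates 3 and 4 stood above replicates 1 and 2 at 16 h, and all 4 stood above every sample at 8 h. *Car4*, a membrane-bound carbonic anhydrase, rose from 28.0 ± 4.78 to 382 ± 48.1 (SD, n = 4) and *Adora1*, a receptor for adenosine, from 11.2 ± 4.80 to 159 ± 56.1. *Bend5*, a BEN domain protein, rose from 39.4 ± 8.77 to 294 ± 18.1, and *Fam198b* from 58.6 ± 8.17 to 423 ± 19.0. These 4 genes had log2 fold changes between 2.84 and 3.74, with adjusted p of at most 5.63e-08. *Prkcb*, a protein kinase C, behaved differently from the rest of the 11 at later times. It had 9.43, 2.68, 14.0 and 16.0 at 8 h and 90.5, 71.7, 162 and 170.0 at 16 h (log2 fold change 3.55, adjusted p = 1.95e-04), and its mean then dropped to 28.3 at 24 h and 9.53 by 48 h. The means of 9 of the others were higher at 24 h than at 16 h, and that of *Adora1* was 127 at 24 h and 749.7 at 96 h.

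**Figure D4:**
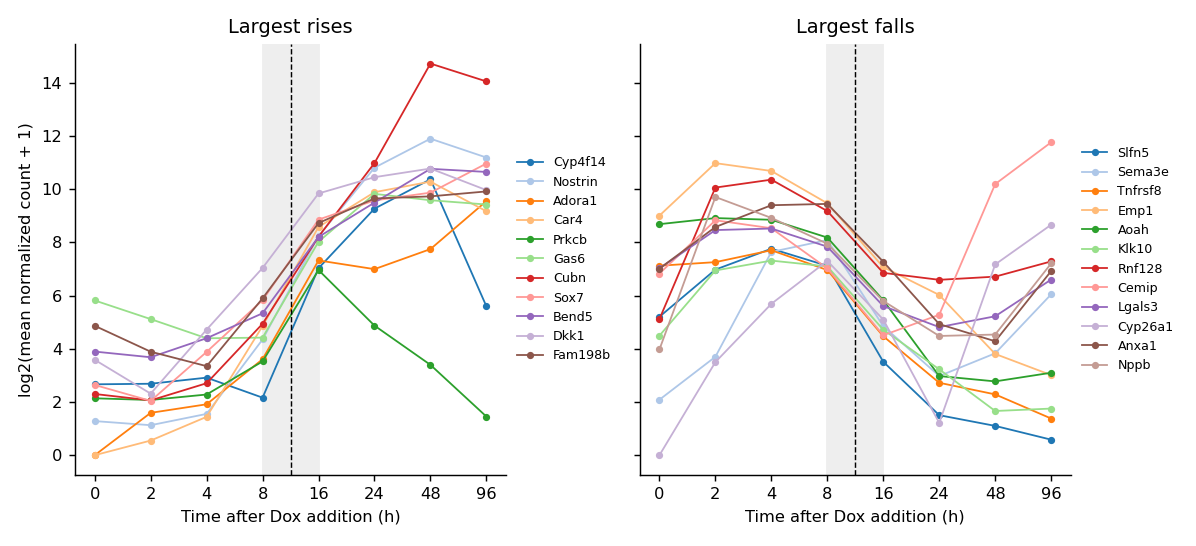
Mean level (vertical axis, log2 of the mean normalized count + 1, n = 4) at each time point in h (horizontal axis, evenly spaced) of 11 of the 12 largest rises (left) and the 12 largest falls (right) at 16 h against 8 h, with the step from 8 h to 16 h shaded and Dox removal dashed. *Cubn* climbed from 296 normalized counts at 16 h to 27062 at 48 h while *Prkcb* dropped to 9.53, and of the falls *Cemip* came back to 3477 and *Cyp26a1* to 405 at 96 h.

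Some endocytic receptors and most genes of protein folding and secretion rose. Of 14 endocytic receptors and adaptors, 4 were higher (28.6%, against 9.44% of all genes) and 0 lower (against 10.6%). The 4 were the cubilin receptor *Cubn*, its membrane partner *Amn*, the clathrin adaptor *Dab2* and *Lrpap1*, the chaperone of the LDL receptor family. *Cubn* had 27.5, 32.1, 35.0 and 24.3 normalized counts at 8 h and 295, 306, 289.5 and 294 at 16 h, a rise of 9.96-fold with hardly any spread between the 16 h samples (log2 fold change 3.29, SE 0.35, adjusted p = 6.53e-08). *Amn* had 8.64, 13.4, 14.0 and 13.7 at 8 h and 62.6, 54.6, 106 and 82.9 at 16 h (log2 fold change 2.50, adjusted p = 4.25e-05). *Dab2* had 75.4, 93.7, 117 and 98.1 at 8 h and 351, 348, 636 and 602 at 16 h (log2 fold change 2.28, adjusted p = 5.48e-05). The other 10 members were not called and the median of the list was 0.12. In the blocked fit 7 of the 14 were higher. Of 24 genes of protein folding and secretion in the endoplasmic reticulum, 18 were higher and 0 lower, with a median of 0.33. These changes were small and regular, the largest being 0.81 for *Kdelr3*, a receptor that returns escaped chaperones to the endoplasmic reticulum. Among them, chosen after their values were seen, the chaperone *Hspa5* rose from 10967 ± 1464 to 15774 ± 687 (SD, n = 4, log2 fold change 0.53) and the transcription factor of the unfolded protein response *Xbp1* from 759.8 ± 8.74 to 1037 ± 41.0 (0.45).

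Basement membrane genes rose in part. Of 23 tested, 11 were higher (47.8%, against 9.44% of all genes) and 0 lower (against 10.6%). The median was 0.34, and in the blocked fit 3 were lower. The largest was P4ha2, a subunit of the prolyl hydroxylase that stabilizes collagen, at 2.22 (adjusted p = 0.0368). Its samples overlapped (29.1, 31.2, 124 and 156 at 8 h, 164, 148, 618 and 589 at 16 h), and replicates 3 and 4 were far above replicates 1 and 2 at both times. Without 8 h replicate 1 or 2, or 16 h replicate 3 or 4, its adjusted p was 0.130, 0.125, 0.127 and 0.123. The laminin and collagen chains, named after their values were seen, moved more evenly. *Col4a1* rose from 1749 ± 56.0 to 6667 ± 960.0 (SD, n = 4), a log2 fold change of 1.92 (adjusted p = 1.17e-08), and *Col4a2* by 1.96. The chains of laminin-111, *Lama1*, *Lamb1* and *Lamc1*, rose by 1.39, 1.67 and 0.72 on the log2 scale, and the collagen chaperone *Serpinh1* by 1.53. Of 11 genes of parietal endoderm, the lineage that lays down Reichert's membrane, 6 were higher (54.5%) and 1, F3, was lower (9.09%), with a median of 1.02. The call of F3, the gene of tissue factor, was lost without any 1 of the 8 libraries (adjusted p = 0.117 to 0.189). The largest rise was that of *Pth1r*, the receptor of parathyroid hormone and its related peptide, from 2.79 ± 0.691 to 16.5 ± 4.32 (2.19, adjusted p = 2.25e-05). *Aqp8*, *Snai1*, *Vim*, *Plat* and *Tfpi*, named after their values were seen, rose by between 0.57 and 2.03 on the log2 scale. With the block, 2 of the 11 were lower. Of 18 secreted proteins of visceral endoderm, 8 passed the filter and 3 of these were higher (37.5%), the apolipoprotein genes *Apom* (0.84) and *Apoe* (0.71) and *Mttp* (0.57). The call of *Apom* was lost without 16 h replicate 3 or 4 (adjusted p = 0.109 and 0.127). That of *Mttp* was lost without 8 h replicate 2 or 3 or 16 h replicate 1 (0.102, 0.213 and 0.225). With the block 1 of the 8 was lower. Of 12 genes of the anterior visceral endoderm, the signalling centre that patterns the epiblast, 5 were higher (41.7%) and 1 lower (8.33%). The 5 became 2 without 8 h replicate 4 and 3 without 8 h replicate 3 or 16 h replicate 2 or 4. The largest rise was that of *Dkk1*, a secreted Wnt antagonist, with 163, 169, 96.4 and 93.5 normalized counts at 8 h and 902, 968, 902 and 892 at 16 h (log2 fold change 2.86, adjusted p = 2.61e-08). *Fzd5*, a Wnt receptor, fell by 0.80 on the log2 scale. Of 579 PrE genes that the study defined on single cells of blastocysts, 572 were found in the table and passed the filter. Of these, 213 were higher (37.2%, against 9.44% of all genes) and 25 were lower (4.37%, against 10.6%), with a median of 0.17. In the blocked fit 40 of the PrE genes were lower, and with the sets averaged 83 were higher and 5 lower.

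Pluripotency factors moved in both directions. Of 25, all of which passed the filter, 4 were higher, 8 were lower and 13 were not called, with a median of -0.16, and none passed 4-fold. The 4 became 2 without 8 h replicate 2, and the 8 became 5 without 16 h replicate 2. *Nanog*, the homeodomain factor of the epiblast, had 377, 398, 544 and 571 normalized counts at 8 h and 265, 232, 258 and 289 at 16 h. All 4 samples at 16 h were below those at 8 h, and the log2 fold change was -0.83 (SE 0.22, adjusted p = 0.00965). The mean at 0 h was 5875 and that at 4 h was 1820.3, so most of the distance was covered before 8 h. *Tdh*, the threonine dehydrogenase of mES cells, fell from 905 ± 122 to 532 ± 32.9 (SD, n = 4, adjusted p = 2.16e-07), and *Zfp42* and *Morc1* fell by 0.33 and 0.47 on the log2 scale. *Pou5f1*, which encodes OCT4, had 6869, 6467, 6102 and 5619.7 at 8 h and 5602, 5970.1, 5861 and 6019 at 16 h, with overlap and a log2 fold change of -0.09 (adjusted p = 0.619). *Sox2* had 387, 386, 297 and 333 and 340.1, 364, 268 and 287, also with overlap (-0.16, adjusted p = 0.683). *Sall4*, a zinc finger factor shared by mES cells and extraembryonic endoderm, rose instead, from 1736, 1595, 1937 and 1983 to 2914, 3263, 3304 and 3062 (log2 fold change 0.79, adjusted p = 4.02e-07). *Klf4*, a Krüppel-like factor of the naive state, rose from 843 ± 70.4 to 1184 ± 97.1 (SD, n = 4, adjusted p = 0.00686). The remaining calls, the rises of *Klf5* (0.33) and *Sall1* (0.31) and the falls of *Tfcp2l1* (-0.53), *Nr0b1* (-0.68), *Dppa2* (-0.21) and *Dppa5a* (-0.24), had adjusted p above 0.1 without some single library. These were 8 h replicate 2 for *Klf5* (0.1001), 8 h replicates 1 and 2 and 16 h replicate 3 for *Sall1* (0.110 to 0.139), 8 h replicates 3 and 4 and 16 h replicates 1 and 2 for *Tfcp2l1* (0.117 to 0.174), 8 h replicate 3 and 16 h replicates 1 and 2 for *Nr0b1* (0.113 to 0.139), 8 h replicates 1 and 2 and 16 h replicates 2 and 3 for *Dppa2* (0.102 to 0.179), and 8 h replicate 1 and 16 h replicate 4 for *Dppa5a* (0.133 and 0.116). The uncalled members were *Lin28a* (0.68, adjusted p = 0.255, or 0.0526 in the blocked fit), *Esrrb* (0.38), *Tcl1* (0.34), *Tbx3* (0.12), *Gbx2* (0.12), *Dppa4* (-0.00), *Fbxo15* (-0.13), *Klf2* (-0.35), *Nr5a2* (-0.56), *Prdm14* (-0.60) and *Dppa3* (-0.94) beside *Pou5f1* and *Sox2*. Of 221 Epi genes of the study, 215 passed the filter. Of these, 78 were lower (36.3%, against 10.6% of all genes) and 7 were higher (3.26%, against 9.44%), with a median of -0.25. In the blocked fit 12 of the Epi genes were higher, and with the sets averaged 20 were lower and 1 higher.

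Genes of the formative epiblast, the state between naive pluripotency and gastrulation, rose in part. Of 14 tested, 5 were higher (35.7%, against 9.44% of all genes) and 1 was lower (7.14%, against 10.6%), with a median of 0.13. *Tcf15*, a bHLH factor of this state, rose most, from 42.2 ± 16.0 to 183 ± 28.6 (SD, n = 4, log2 fold change 2.16, adjusted p = 1.31e-05). The de novo DNA methyltransferases rose as well. *Dnmt3a* had 1929.7, 2009.8, 1019.6 and 1084 normalized counts at 8 h and 5096, 5175, 4439 and 4394 at 16 h, with replicates 1 and 2 higher than replicates 3 and 4 at each time but no overlap between the times (log2 fold change 1.73, adjusted p = 5.25e-07). *Dnmt3b* rose from 3091 ± 215 to 6401 ± 186 (1.05, adjusted p = 4.54e-08), while *Tet1*, which oxidizes methylated cytosine, fell by 0.53 on the log2 scale (adjusted p = 0.00103). These were the 3 members called among 9 genes of DNA methylation. *Dnmt3a* had a mean of 226 before induction, reached 6484 at 24 h and was down to 2449 by 48 h. *Dnmt3b* likewise went from 681 to 8560.4 and then to 2586. *Otx2*, a homeodomain factor of the formative state and of anterior visceral endoderm, rose by 1.09 (adjusted p = 0.0215, and 0.113 without 8 h replicate 4). *Sox4* fell from 51.0 ± 14.9 to 14.6 ± 8.34 (SD, n = 4, adjusted p = 0.00116).

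The 12 largest falls among abundant genes were those of *Slfn5*, *Sema3e*, *Tnfrsf8*, *Emp1*, *Aoah*, *Klk10*, *Rnf128*, *Cemip*, *Lgals3*, *Cyp26a1*, *Anxa1* and *Nppb*, with log2 fold changes from -3.62 to -2.15. *Slfn5*, a member of the Schlafen family, had 176, 163, 102 and 111 normalized counts at 8 h and 13.9, 11.4, 5.99 and 10.4 at 16 h, a 13.3-fold fall (SE 0.37 on the log2 scale, adjusted p = 2.77e-08). *Sema3e*, a secreted semaphorin, had 167, 206, 346 and 366 at 8 h and 29.6, 25.3, 24.0 and 32.8 at 16 h, a 9.73-fold fall (adjusted p = 1.10e-06). The set of replicates 3 and 4 was higher than the other set at 8 h, and no such split was seen at 16 h. *Rnf128*, an E3 ubiquitin ligase, had 528, 575, 591 and 620.4 at 8 h and 121, 118, 106 and 114 at 16 h (-2.32, adjusted p = 7.99e-13). Its time course was a pulse, from a mean of 33.7 before induction through 1068 at 2 h to 1313 at 4 h and back to 95.6 by 24 h. *Emp1*, an epithelial membrane protein, had 539.8, 497, 879 and 919.9 at 8 h and 92.2, 85.5, 183 and 173 at 16 h (-2.43, adjusted p = 5.95e-06), and *Nppb*, a natriuretic peptide, had 245, 282, 229 and 229.6 and 58.3, 47.2, 57.9 and 55.2 (-2.15, adjusted p = 2.61e-08). Both had their highest mean at 2 h, 2019.5 and 835. The lipase *Aoah*, the receptor *Tnfrsf8* (CD30), the kallikrein-related protease *Klk10*, the galectin *Lgals3* and the annexin *Anxa1* fell by between 2.18 and 2.44 on the log2 scale, with adjusted p of at most 8.62e-05. *Cyp26a1*, which degrades retinoic acid, had 96.6, 116, 226 and 191 at 8 h and 24.4, 21.2, 47.9 and 39.7 at 16 h (-2.20, adjusted p = 4.44e-07). Its mean was 1.32 at 24 h and 405 at 96 h, so the fall was followed by a return. *Cemip*, a hyaluronan-binding protein, split by set at 8 h, with 43.2, 45.5, 222 and 206 there and 12.2, 16.3, 35.3 and 23.3 at 16 h. Its log2 fold change of -2.22 had an adjusted p of 0.0535, which became 0.167 and 0.163 without 8 h replicate 3 or 4 and 0.136 and 0.113 without 16 h replicate 1 or 2. Under the cutoff of 100 normalized counts the falls were larger still, as in *Tph1* (-4.27), the tryptophan hydroxylase of serotonin synthesis, and *Nkx2-3* (-3.97), a homeobox gene, both named after their values were seen.

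Many of the genes that fell had risen at the start of induction. The comparison of 4 h with 0 h shares no sample with that of 16 h with 8 h. In it, 410 genes (2.69%) were higher and 108 (0.709%) lower at FDR < 0.1 and 4-fold, in a step that also held the change of medium. Of the 410 early risers, 163 (39.8%) were lower at 16 h against 8 h at FDR < 0.1 and 33 (8.05%) were higher, against 10.6% and 9.44% of all genes, and their median log2 fold change was -0.62. Of the 108 early fallers, 11 (10.2%) were lower and 12 (11.1%) higher, and 5 to 8 were lower without any 1 of the 8 libraries. Read from the other end, 44 of the 82 genes lower at 4-fold at 16 h (53.7%) were early risers and 0 were early fallers, and 4 of the 76 genes higher at 16 h (5.26%) were early risers. The number of early risers that fell ranged from 80 to 242 over the alternatives that change the fit, with 80 for averaged sets, 82 for a mean of at least 50 and 104 for a pseudocount of 8. The highest mean of the time course was at 2 h for 26 of the 82 and at 4 h for 37 of them, and 9 more peaked at 8 h. In 53 of them the mean at 16 h was below that at 0 h.

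Immediate early genes, which respond to growth factors and serum within minutes, fell in part. Of 23 tested, 5 were lower (21.7%, against 10.6% of all genes) and 0 higher, with a median of -0.33, and 8 were lower in the blocked fit. *Fosl1*, an AP-1 subunit, had 25.1, 18.7, 23.3 and 25.1 normalized counts at 8 h and 3.48, 3.26, 4.66 and 5.18 at 16 h (-2.24, adjusted p = 0.00244), and its mean at 2 h was 222. *Atf3*, *Egr3* and *Fosl2* fell by 1.53, 1.65 and 1.03 on the log2 scale. *Csrnp1* (-0.35) was called too, but not without 8 h replicate 3 or 4 or 16 h replicate 1, 2 or 3 (adjusted p = 0.133 to 0.237). Of 20 feedback and target genes of ERK, 4 were lower (20%) and 0 higher. They were *Fosl1*, *Spred3* (fell by 1.29 on the log2 scale), an inhibitor of the pathway, *Phlda1* (-0.78) and the ETS factor *Etv5* (-0.68). Of 17 targets of SRF and YAP, 4 were lower (23.5%) and 0 higher, with *Ctgf*, a secreted matricellular protein, going from 382 ± 52.8 to 142 ± 49.6 (SD, n = 4, adjusted p = 2.28e-05), and with *Cyr61*, *Flna* and *Cnn3* lower as well. With the block, 8 of these 17 were lower and 1 higher, and 2 of the 20 ERK genes were higher.

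Calls among signalling genes fell on single ligands and receptors, and several shares were near those of all genes (9.44% higher and 10.6% lower). In the FGF family, whose signal favours PrE over Epi, 3 of 12 members were higher (25.0%) and 1 was lower (8.33%). *Fgf4*, the ligand made by Epi cells, had 365, 421, 264 and 293 normalized counts at 8 h and 157, 164, 86.5 and 92.3 at 16 h (-1.46, adjusted p = 5.45e-04). Its receptor gene *Fgfr2* rose from 191 ± 54.0 to 556 ± 169 (SD, n = 4, 1.53, adjusted p = 0.00215), and the ligands *Fgf3* and *Fgf10* rose by 1.65 and 0.89. *Pdgfra*, the PDGF receptor that marks PrE, had 2777, 2819, 2234 and 2281 at 8 h and 5294, 5502, 5558 and 5677 at 16 h (1.13, adjusted p = 5.64e-07). Of its ligands, *Pdgfa* rose by 0.58 and *Pdgfc* fell by 1.38 on the log2 scale. These made 3 calls among 6 members (33.3% higher and 16.7% lower), with 2 lower under the block. Of 20 genes of the BMP pathway, 4 were higher and 2 lower, with the largest rise in *Bmper*, a secreted modulator of BMP, from 6.96 ± 3.32 to 38.0 ± 18.7 (2.25, adjusted p = 6.80e-04), and the largest fall in *Id4*, an inhibitor of bHLH factors (-1.81, adjusted p = 6.70e-04). Of 16 *Nodal* pathway genes, 2 were higher (12.5%, against 9.44% of all genes) and 1, *Nodal* itself, was lower (-0.80, SE 0.22), and under the block 2 were lower. The 2 higher calls, *Lefty1* and *Smad2*, were both lost without 8 h replicate 3 or 16 h replicate 1, 2 or 4. Of 18 Wnt targets and feedback genes, 2 were higher (11.1%, against 9.44% of all genes), *Dkk1* foremost. Of the same 18, 3 were lower (16.7%), among them *Nkx1-2* (-1.25), the largest fall, and *Notum* (-1.19), a secreted Wnt deacylase. The call of *Nkx1-2* was lost without 8 h replicate 1 or 2 or 16 h replicate 1, 2, 3 or 4 (adjusted p = 0.101 to 0.303). Of 16 genes of the LIF pathway, 2 were higher (12.5%) and 4 lower (25.0%, against 10.6% of all genes), with the kinase *Jak2* at -0.83. The 4 became 2 without 8 h replicate 1, 2 or 4 and 1 without 16 h replicate 1 or 2. Of 16 genes of retinoid handling, 2 were higher (12.5%), the retinoic acid hydroxylase *Cyp26b1* (1.85 ± 1.73 to 7.61 ± 1.33) and the retinaldehyde dehydrogenase *Aldh1a1* (1.76 ± 1.40 to 7.97 ± 3.78). In the same list 1, *Cyp26a1*, was lower (6.25%), while under the block 4 were lower. Among 7 GATA factors and FOG cofactors tested, *Gata4* and *Gata6* were higher and *Gata3* (-1.56) and *Zfpm2* were lower. *Zfpm2*, a cofactor that binds GATA proteins, had 15.7, 12.5, 11.7 and 10.6 at 8 h and at most 3 reads in any library at 16 h, so that it was at least 5.24-fold lower (adjusted p = 8.98e-06). Without 1 library, the Wnt genes called higher numbered 1 or 2, the BMP genes called lower 1 or 2, and the FGF and retinoid genes called lower 1 or 2 each. Among the BMP genes called higher, *Bmp2* (0.81) lost its call without 8 h replicate 2 or 4 or 16 h replicate 1, 3 or 4 (adjusted p = 0.103 to 0.306).

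Some genes of epithelial adhesion fell. Of 18 keratins, cadherins and EMT factors, 6 were lower (33.3%, against 10.6% of all genes) and 2 higher (11.1%, against 9.44%), with a median of -0.37. *Cdh3*, which encodes P-cadherin, had 92.7, 57.1, 78.5 and 73.0 normalized counts at 8 h and 23.5, 19.6, 16.0 and 18.1 at 16 h (-1.90, adjusted p = 6.33e-05). *Epcam*, chosen after its values were seen, fell from 2658 ± 343 to 1270.5 ± 52.6 (SD, n = 4), and *Cdh1*, which encodes E-cadherin, from 3762 ± 831 to 2593 ± 82.4. The 2 members that rose were *Snai1*, a repressor of *Cdh1*, from 29.0 ± 13.7 to 76.5 ± 29.7, and the intermediate filament gene *Vim*, from 2034 ± 128 to 5109 ± 194. Of 19 genes of ATF4 and the response to amino acid shortage, 8 were lower (42.1%) and 1 higher (5.26%). The list had the lowest median of those with 8 or more tested members (-0.57). The largest fall was that of *Slc7a11*, the cystine transporter, with 95.1, 85.7, 117 and 112 at 8 h and 27.0, 33.4, 17.3 and 21.6 at 16 h (-2.03, adjusted p = 0.0150). *Atf4*, *Chac1*, *Trib3*, *Sesn2*, *Mthfd2* and *Nupr1*, named after their values were seen, fell by 0.57, 2.02, 1.25, 0.82, 0.76 and 1.17 on the log2 scale, whereas *Asns* rose by 0.35. Of 16 p53 targets, 3 were lower (18.8%), the largest fall being that of *Perp* (-1.41), and *Cdkn1a* fell by 0.91 on the log2 scale. The call of *Bax* (-0.24) was lost without 8 h replicate 1 or 2 or 16 h replicate 1 or 2 (adjusted p = 0.102 to 0.140).

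Other lists held few calls, and many of their shares were near those of all genes (9.44% higher and 10.6% lower). Of 23 glycolysis genes, 4 were higher (17.4%), with *Pfkl* at 1.32, and 2 lower (8.70%), with *Ldhb* at -0.78 and *Hk2* at -0.69. Of 13 hypoxia genes, 3 were higher (23.1%), with P4ha1 at 1.40. The higher calls of *Slc2a3* and *Eno3* in glycolysis and of *Egln3* in hypoxia were each lost without some single libraries (adjusted p = 0.136 to 0.197). Of 23 cholesterol synthesis genes, 1 was higher (4.35%) and 2 lower (8.70%), with *Msmo1* at -0.52. Of 23 Polycomb genes, 2 were higher (8.70%), with *Phc2* at 0.42, and 4 lower (17.4%), with *Suz12* at -0.31. Of 25 lysosome genes, 2 were higher (8.0%), with *Ctsz* at 0.51, and 1 lower (4.0%), *Cd63* (-0.44). Of 12 genes of the MYC network, 2 were higher (16.7%), with *Mxd3* at 0.61, and 1 lower (8.33%), *Mycn* (-0.48). Of 22 genes of S phase and mitosis, 1 was called (4.55%), and of 19 G1 cyclins and CDK inhibitors, 1 was higher (5.26%) and 3 lower (15.8%). Of 10 heat shock genes, 2 were higher, with *Hspb1* at 0.56, and of 8 interferon response genes, 2 were lower, with *Irf1* at -0.57. Of the markers of other cell types that passed the filter, 2 of 9 for trophoblast (*Gata3* and *Tfap2a*, -1.17), 1 of 4 for mesoderm (*Kdr*) and 1 of 4 for fibroblast (*Twist1*, -0.64) were lower, *Nes* (0.57) and *Tubb3* (-1.40) of 4 neural markers were called in opposite directions, and 0 of 7 two-cell-like markers were called by limma, with 0 of them at an unadjusted p under 0.05. The call of *Kdr*, a VEGF receptor, was lost without 8 h replicate 2 or 4 or 16 h replicate 1, 2 or 3 (adjusted p = 0.139 to 0.211). Small counts moved when 1 library was left out: 1 to 3 cholesterol genes were lower, 1 to 4 Polycomb genes higher and 2 to 4 lower, 1 to 3 G1 genes higher, and 0 or 1 gene of S phase and mitosis was called, while the counts for lysosome, MYC network, heat shock, interferon and trophoblast genes moved by at most 1. In the blocked fit 5 lysosome genes were higher and 2 lower, 3 MYC network genes, 1 gene of S phase and mitosis and 2 fibroblast markers were lower, and 4 G1 genes, 5 Polycomb genes, 2 interferon response genes and 1 trophoblast marker were higher.

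**Figure D5:**
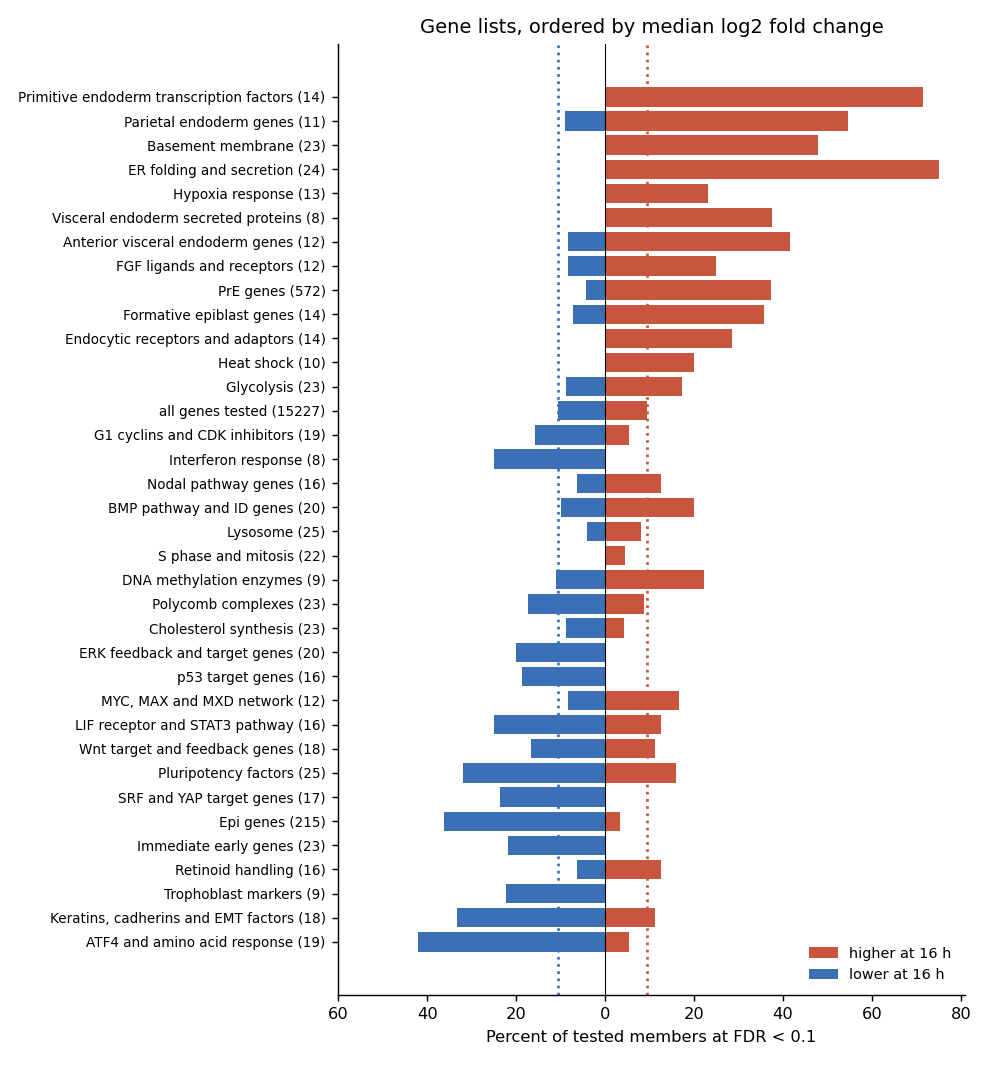
Percent of the tested members of each gene list (number tested in brackets) that were higher (red, to the right) or lower (blue, to the left) at 16 h against 8 h at FDR < 0.1, for lists with at least 8 tested members ordered by their median log2 fold change, with dotted lines at the shares of all genes (9.44% and 10.6%). PrE transcription factors (10 of 14) stand at the top and the ATF4 list (8 of 19 lower) at the bottom.

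The comparison of 48 h with 24 h, which shares no sample with that of 16 h with 8 h, showed how far the rises went on. In it, 4538 genes (29.8%) were higher and 4226 (27.8%) lower at FDR < 0.1. Of the 76 genes higher at 16 h at 4-fold, 40 (52.6%) were higher again at 48 h against 24 h and 14 (18.4%) were lower. *Cubn* had a mean of 2025 normalized counts at 24 h and 27062 at 48 h, and *Dab2* of 3144 and 21005. Of the 82 genes lower at 16 h, 12 (14.6%) were lower again and 18 (22.0%) were higher at 48 h against 24 h, both below the shares of all genes. Of these 82, 29 had at most 3 reads in every library at 16 h, a level from which a further fall can hardly be called. *Slfn5* had means of 1.84 at 24 h and 1.15 at 48 h. The highest mean came at 48 h for 29 of the 76, at 96 h for 26 and at 24 h for 13, while 7 peaked at 16 h.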

How the data were processed

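Poly(A) RNA of 4 replicates at each of 8 time points was sequenced by the authors as stranded libraries. They trimmed reads with cutadapt 2.7, checked them with FastQC 0.11.8, aligned them to GRCm38.p6 with HISAT2 2.1.0 and counted them per GENCODE gene with featureCounts of Subread 1.6.4. The authors deposited log2-scale values, variance-stabilized with DESeq2. Inverting the transformation gave whole reads for 100% of values (within 0.001) and counts normalized by the authors' size factors. Rows with at least 10 normalized counts in at least 4 of the 32 samples were kept (15227). Log2(normalized count + 1) was fitted over all 32 samples with limma 3.58.1 in R 4.3.3 (moderated test with a mean trend, two-sided, Benjamini-Hochberg over all genes). A change was called at FDR < 0.1, and at 4-fold with a log2 fold change of at least 2. The pseudocount understates the change of low genes. Summaries used Python 3.11.15. The fit was tested on simulated data with independent libraries, which lack the 2 sets seen here, so error rates under those sets were not tested.

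Named were the transgene row and *Gata6*, the 12 largest rises and 12 largest falls at 4-fold with a mean of at least 100 and no overlap, the member with the largest rise and with the largest fall in each list, all PrE transcription factors and pluripotency factors, and members where a count was 5 or fewer. The samples were set by their labelled time points, while the lists were written with earlier results of these data known. Deviations from the group means correlated at 0.363 between same-numbered libraries of the 2 times (0.345 to 0.398), at 0.356 between different numbers of the same set and at -0.360 between sets, so the replicate number was also fitted as a block. Some results that this rule names are not reported here. Alternatives changed the pseudocount, filter, scaling, samples, block and test.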

Additional observations from a re-analysis of the deposited data

Results flagged for a closer look

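Single libraries stood apart from the other 3 of their group by Dixon's test in 10 of 332 groups tested (3.01%), and chance alone marks about 1 in 20. At 16 h, *Dkk1* was 967.7 normalized counts in replicate 2 and 892 to 902 in the others, *Lgals3* was 63.87 in replicate 4 and 40.7 to 44.6 in the others, *Id4* was 12.22 in replicate 2 and 6.90 to 7.32 in the others, and *Suz12* was 3179 in replicate 4 and 2999.8 to 3028 in the others. The hypoxia response gene *Ndrg1* was marked at both times, at 24.11 in replicate 2 against 11.4 to 13.2 in the others at 8 h, and at 23.96 in replicate 3 against 32.6 to 33.0 at 16 h. At 8 h, *Amn* was 8.643 in replicate 1 and 13.4 to 14.0 in the others, and *Cdkn2a* was 97.43 in replicate 1 and 109 to 109.8 in the others. *Atf3* was 52.89 in replicate 3 of the 8 h samples and 38.0 to 40.2 in the others, and *Smad2* was 545.1 in replicate 4 and 512 to 514 in the others.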

How the results depend on the processing

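The transgene row lay between -3.34 and -2.50 and endogenous *Gata6* between 1.33 and 1.43 (log2 fold change) under all alternatives, and both remained called. Without any 1 of the 8 libraries, 71 to 85 genes were higher and 76 to 91 lower at 4-fold, 1140 to 1284 and 1297 to 1423 at FDR < 0.1, 181 to 210 and 16 to 24 of the PrE genes (16 without 16 h replicate 2), and 4 to 6 and 69 to 73 of the Epi genes (4 without 16 h replicate 1 or 2). Early risers were then higher in 27 to 31 and lower in 148 to 158, early fallers in 9 to 11 and 5 to 8. At 48 h against 24 h the genes higher at 16 h were higher in 35 to 46 and lower in 11 to 15, and the genes lower at 16 h in 16 to 19 and 10 to 15. AGATAA was in 4.81 to 7.55% and 8.25 to 10.6% of promoters. The 4-fold calls lost without 1 library were P4ha2, *Ren1*, *Aqp3* and *Cemip*. At 4-fold, a pseudocount of 8 gave 31 higher and 20 lower, the deposited values 46 and 33, a mean of at least 50 gave 25 lower, and limma-voom on the recovered whole reads gave 101 and 105. At FDR < 0.1, replicates 3 and 4 alone gave 2359 higher and 2618 lower, and averaged sets 319 and 331. PrE genes lower were 15 with no filter, 42 with the set as a block, 42 with replicates 1 and 2 alone, 60 with replicates 3 and 4 alone and 5 with averaged sets, which also gave 83 higher. Epi genes higher were 4 with no filter, 13 with only the 8 h and 16 h samples, 13 with the set block, 15 and 19 with each set alone and 1 with averaged sets, and Epi genes lower were 122 with replicates 3 and 4 alone and 20 with averaged sets. With the replicate number as a block, 40 PrE genes were lower and 12 Epi genes higher, *Sox17* (log2 fold change 0.68) and *Lin28a* (0.68) passed the threshold, and no other named gene changed its call. Early risers higher were 68 with replicates 3 and 4 alone, 15 with averaged sets and 55 with voom, and early risers lower were 104 with the pseudocount of 8, 82 with the mean of 50 and 80 with averaged sets. Early fallers higher were 3, 4, 19, 23, 6 and 3 with the pseudocount of 8, the mean of 50, the set block, replicates 1 and 2 alone, averaged sets and the deposited values. Early fallers lower were 4, 4, 4, 0 and 5 with the pseudocount of 8, no filter, the mean of 50, averaged sets and the deposited values. At 48 h against 24 h, the pseudocount of 8 left 21 genes higher and 4 lower of those higher at 16 h, and 3 and 4 of those lower at 16 h. The mean of 50 left 2 lower of the first, and 7 higher and 5 lower of the second. Of the second, 11 were higher with no filter, 10 with averaged sets, 7 with the deposited values and 11 with voom, and 19, 19 and 5 were lower with each set alone and the deposited values. The causes of these differences were not tested, and some of these settings also changed the number of genes tested or called.

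Changes of sign touched only genes that had not been called. Replicates 1 and 2 alone gave 0.20 for *Eomes*, -0.064 for *Cited1*, 0.091 for *Klf6*, 0.014 for *Dppa4* and -0.12 for *Gbx2*, and replicates 3 and 4 alone gave 0.020 for *Pou5f1* and 0.12 for *Fbxo15* (limma adjusted p = 0.0450). Scaling by total reads gave 0.00089 for *Klf6* and 0.0018 for *Dppa4*, scaling by the 75th percentile gave 0.012 for *Eomes*, 0.014 for *Klf6* and 0.015 for *Dppa4*, and voom gave 0.0021 for *Dppa4*. Without 1 library *Eomes* lay between -0.097 and 0.11, *Klf6* between -0.027 and 0.036 and *Dppa4* between -0.026 and 0.038. Of 147 named genes that were called, 147 kept their direction under every alternative run for them, 61 kept the call under all of these, 38 lost it without some library and 86 with averaged sets. At these depths a gene with at most 3 reads per library gives only a bound on its change, and the 4 libraries of a time fall into 2 sets, so that the spread within a set is smaller than between sets.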

Other observations

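The genes of this section were chosen after their values were seen. Of the 76 genes that rose at 4-fold, 7 had their highest mean of the whole time course at 16 h, and several of them encode regulators of transcription or signalling. *Prdm1*, a zinc finger repressor, had 13.4, 11.6, 6.22 and 15.2 normalized counts at 8 h and 60.0, 80.6, 119 and 139.8 at 16 h, and means of 45.2 at 24 h and 6.17 at 96 h. Its earlier means were 36.3 at 0 h, 77.8 at 2 h and 24.3 at 4 h, so *Prdm1* had also been high before the low at 8 h. *Insm1*, a zinc finger repressor of endocrine cells, had 4.71, 4.46, 1.56 and 2.28 at 8 h and 22.6, 37.5, 29.3 and 24.2 at 16 h, and a mean of 2.62 at 48 h. For both, all 4 samples at 16 h lay above all 4 at 8 h, and most of the rise was gone by 48 h. *Foxa1* went from a mean of 47.2 at 16 h to 3.85 at 48 h, and *Tcf15* from 183 to 59.5. *Prkcb* and *Espn*, an actin-bundling protein, were also among the 7.

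*Cdh5* and *Ramp2*, which are known from endothelial cells, rose beside the endoderm genes. The VEGF receptor gene *Kdr* went the other way (log2 fold change -1.02, limma adjusted p = 0.0726), a call lost without some single libraries. *Cdh5*, which encodes VE-cadherin, had 2.36, 0, 3.89 and 12.2 normalized counts at 8 h and 31.3, 60.3, 106 and 112 at 16 h, a rise of 4.19 in log2 units with a limma adjusted p of 1.75e-06, and a mean of 379 at 96 h. *Ramp2*, which pairs with the adrenomedullin receptor, had 2.36, 2.68, 3.89 and 3.04 at 8 h and 28.7, 25.3, 51.9 and 41.4 at 16 h. The groups of both genes did not overlap. *Amot*, an angiomotin that binds YAP, had 513, 537, 402 and 441 at 8 h and 2548, 2779, 2569 and 2587 at 16 h, from a mean of 9.45 at 0 h. The aldo-keto reductases *Akr1c12* and *Akr1c13* rose to 9.84 ± 4.76 and 25.5 ± 5.92 (SD, n = 4) from 0.223 ± 0.446 and 2.21 ± 1.72, though reads of such similar genes can be split uncertainly.

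Among the falls, 9 genes had their highest mean at 8 h, the last time measured with Dox. *Sost*, a secreted inhibitor of BMP and Wnt signalling, had 53.4, 56.2, 95.7 and 101 normalized counts at 8 h and 11.3, 6.52, 12.0 and 10.4 at 16 h, with means of 0 at 0 h, 1.03 at 4 h and 0 at 24 h. *Il22ra1*, a cytokine receptor, had 75.4, 79.5, 97.2 and 75.3 at 8 h and 4.35, 8.15, 3.99 and 6.04 at 16 h. *Nkx2-3* had 28.3, 30.4, 51.3 and 34.2 at 8 h and 0.870, 0.815, 2.00 and 1.73 at 16 h. Each was near 0 before induction and near 0 again at 24 h. Of the genes of kallikrein-related proteases, *Klk7* fell from 11.4 ± 4.99 to 0.791 ± 0.671, *Klk9* from 10.1 ± 6.38 to 0.333 ± 0.666 and *Klk10* from 136 ± 42.3 to 25.3 ± 5.60 (SD, n = 4). Both cyclooxygenase genes passed 4-fold, *Ptgs2* going from 49.4 ± 9.97 to 4.60 ± 1.80 and *Ptgs1* from 12.9 ± 2.96 to 2.38 ± 1.13. The peptide precursor genes *Pdyn*, *Npy* and *Vgf* fell from 19.0 ± 1.75 to 0.970 ± 0.242, from 6.90 ± 2.44 to 0.217 ± 0.435 and from 7.06 ± 2.48 to 0.574 ± 0.770. The interferon-induced GTPases *Gbp2* and *Gbp2b* fell from 31.4 ± 6.08 to 3.64 ± 1.74 and from 6.06 ± 2.26 to 0.384 ± 0.451, and reads of this pair of similar genes can be split uncertainly as well.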
